A study of Rattus norvegicus with 8 samples.

Results

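Nuclear-encoded genes of oxidative phosphorylation were examined in axons and cell bodies of cultured rat hippocampal neurons. Mitochondria make ATP by passing electrons from NADH and succinate along complexes I to IV of the inner membrane to oxygen, which pumps protons that drive the ATP synthase, complex V. Most subunits are encoded in the nucleus, translated in the cytosol and imported into mitochondria, and neurons carry both mitochondria and a part of these mRNAs into their axons. Members were the rows of both gene tables whose rat gene symbol was a numbered Ndufa, Ndufb, Ndufc, Ndufs or Ndufv gene, Sdha to Sdhd, or Cycs, or began with Uqcr, with Cox and a digit and letter for subunits 4 to 8, or with Atp5. The rule found 69 of the 26405 genes listed. By symbol, 35 were assigned to complex I, 4 to complex II, 6 to complex III, 13 to complex IV and 11 to complex V. All counts of members include a few rows, named below, that are pseudogenes or genes that do not encode subunits.

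The study grew embryonic hippocampal neurons for 10 to 14 days in microfluidic chambers, in which axons enter a compartment apart from the cell bodies. Axons alone were exposed for 24 h to soluble oligomers of Abeta(1-42), the peptide that accumulates in Alzheimer's disease, or to vehicle. RNA from each compartment gave 4 groups with 2 libraries in each: axons of Abeta-treated chambers, axons of vehicle chambers, somata of Abeta-treated chambers and somata of vehicle chambers. Whether the duplicate libraries of a group are separate cultures is not stated in the labels, so a p-value here reflects only how these libraries vary, which may be technical.

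The authors deposited 1 comparison of Abeta with vehicle for each compartment. The tables do not state which treatment is the numerator, so "positive side" here means a deposited log2 fold change above 0 and "negative side" one below 0. Neither side can be named as Abeta or vehicle, and whether a side is the same treatment in both compartments is not stated either. The whole reads behind each mean were recovered from its digits, which gave the normalized count (reads divided by the library's size factor) in the 2 libraries of each side. These libraries could not be matched to the sample titles, so they are called libraries 1 and 2 of a side, 1 being the deeper. They held 231854 to 425420 recovered reads each in axons. In somata the libraries 1 held 2699570 reads on the positive side and 3661660 on the negative side, against 263117 and 290371 in the libraries 2, so both somatic sides pair a deep with a shallow library.

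In axons the members lay more often on the positive side than on the negative side, by amounts that no test called. Of the 66 members with axonal reads, 49 had a log2 fold change above 0 and 17 below 0, where 43.7% of all genes with reads lay above 0 and 56.3% below. Among genes that were well expressed in somata, defined as a somatic mean of at least 100 normalized counts, 76.6% lay above 0. The members' share, 49 of 66, is near the share in these well-expressed genes. No member passed an adjusted p of 0.05 in the DESeq2 Wald test of the authors' deposited table, where 8.78% of the 1321 genes with an adjusted p were called on the positive side and 14.2% on the negative side. That table gives an adjusted p for only 2 members, Atp5b (0.170) and Atp5a1 (0.390), since the other 67 have a mean under 44.8, the lowest mean with an adjusted p. At an unadjusted p under 0.05 by the same test, 4 members lay on the positive side and 0 on the negative side, against 1.86% and 2.59% of all genes with reads and 9.28% and 3.91% of well-expressed genes.

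The 4 members were Sdhb, Ndufa13, Atp5j and Ndufs3, in order of p. Sdhb, the iron-sulfur subunit of succinate dehydrogenase, had 37.8 and 30.5 normalized counts in the axonal libraries of the positive side, against 3.15 and 5.40 on the negative side. Its log2 fold change was 2.44 with a standard error of 0.82 (DESeq2 Wald p = 0.00284, unadjusted, in the authors' deposited table). Both positive-side libraries stood above both negative-side libraries by more than the distance within either side. Ndufa13, an accessory subunit of complex I, had 15.9 and 29.7 normalized counts on the positive side, against 1.05 and 4.05 on the negative side, again without overlap (2.34 ± 0.92 SE, DESeq2 Wald p = 0.0111 in the authors' deposited table). Atp5j, the coupling factor in the stalk of the ATP synthase, had 6.80 and 18.8 on the positive side, against 0 and 1.35 on the negative side (DESeq2 Wald p = 0.0223 in the authors' deposited table). Ndufs3, a core subunit of the peripheral arm of complex I, had 10.6 and 14.9 on the positive side, against 2.10 and 0 on the negative side (DESeq2 Wald p = 0.0401 in the authors' deposited table). The sides were apart for all 4 genes. Atp5j rests on 34 reads and Ndufs3 on 35 reads over 4 libraries, so both are thinly covered. Adjusted over all genes with axonal reads, the smallest p of any member, that of Sdhb, became 0.249.

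**Figure D1:**
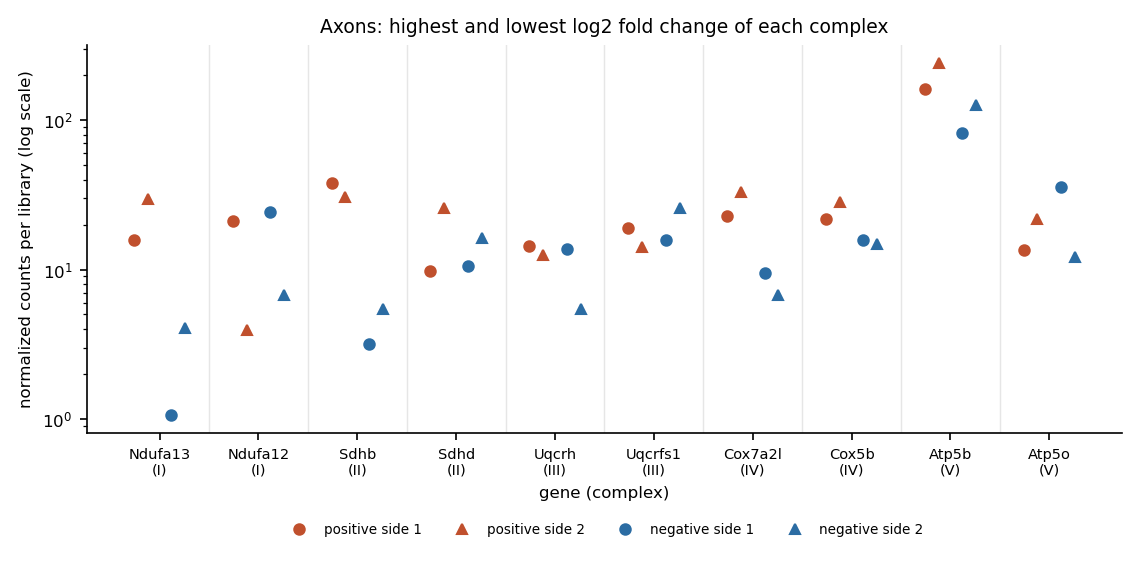
Normalized counts in each axonal library (log axis) for the member with the highest and the member with the lowest axonal log2 fold change in each complex, among members with an axonal mean of at least 10. Each symbol is 1 library, with the positive side left of the negative side. The sides are apart for Sdhb, Ndufa13, Cox7a2l, Cox5b and Atp5b and overlap for the other 5 genes.

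The promoters of the 5 members with the highest axonal fold change in their complex, among those with an axonal mean of 10 or more, are shown because nuclear respiratory chain genes are known to share binding sequences for a few transcription factors, and a reader can set the sequences of these genes side by side. Each stretch is the 150 bases before the start of the gene in the RefSeq promoter table for the GRCr8 build, written 5′ to 3′ on the strand of the gene, which need not be the build of the expression tables. Ndufa13 is at chr16:19560376-19560525, plus strand, Sdhb at chr5:158547784-158547933, plus strand, Uqcrh at chr5:134790883-134791032, minus strand, Cox7a2l at chr6:16936424-16936573, plus strand and Atp5b, named Atp5f1b in RefSeq, at chr7:1099908-1100057, plus strand. Capitals mark matches to any of the 4 sequences kept in the search described next, and all matches in these stretches were to the ETS sequence CCGGAAG or its reverse complement CTTCCGG.
Ndufa13: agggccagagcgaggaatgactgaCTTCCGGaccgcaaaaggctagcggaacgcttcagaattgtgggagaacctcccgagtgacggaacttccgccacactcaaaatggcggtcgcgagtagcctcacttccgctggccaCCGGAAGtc
Sdhb: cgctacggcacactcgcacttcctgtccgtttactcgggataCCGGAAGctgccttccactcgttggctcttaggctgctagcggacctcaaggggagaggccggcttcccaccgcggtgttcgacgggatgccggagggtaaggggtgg
Uqcrh: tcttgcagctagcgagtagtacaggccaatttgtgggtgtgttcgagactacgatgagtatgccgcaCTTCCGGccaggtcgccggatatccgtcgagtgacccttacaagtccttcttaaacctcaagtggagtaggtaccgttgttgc
Cox7a2l: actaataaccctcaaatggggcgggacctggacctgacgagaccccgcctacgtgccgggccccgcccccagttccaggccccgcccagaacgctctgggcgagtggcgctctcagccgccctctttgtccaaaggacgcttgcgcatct
Atp5b: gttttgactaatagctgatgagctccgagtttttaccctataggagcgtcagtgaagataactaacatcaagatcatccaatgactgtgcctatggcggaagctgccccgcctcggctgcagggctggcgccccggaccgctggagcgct
The stretch of Ndufa13 holds the ETS sequence 2 times, those of Sdhb and Uqcrh once each, and those of Cox7a2l and Atp5b hold none of the 4. A match in letters does not show that a factor binds there.

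A RefSeq promoter window of 300 bases (250 before and 50 after the start) was found for 58 of the 68 member names. Both strands were searched for 10 sequences, and the 4 given first were kept after the shares of all 10 had been seen, so these shares are a description. CCGGAAG, the core of ETS factor sites, was in 19 member windows (32.8%), in 8.75% of all 33469 windows and in 15.7% of the 2019 windows of other genes well expressed in somata. The windows of well-expressed genes were added as a background after the first shares had been seen. AAGATGGC, the core of YY1 sites, was in 14 member windows (24.1%), in 3.17% of all windows and in 6.69% of those of well-expressed genes. The palindrome of nuclear respiratory factor NRF1, with 1 free base among its 10, was in 10 (17.2%), 4.25% and 11.9%. AAGGTCA, bound by oestrogen-related receptors, was in 8 (13.8%), 4.61% and 1.63%. At least 1 of these 4 was in 37 of the 58 windows, and 12 held 2 or more. Of the other 6, the NRF1 palindrome with no free base (5.17% of member windows, 0.852% of all), its centre CGCATGCG (8.62% and 1.66%), CCGGAAGT (13.8% and 3.81%) and a YY1 sequence of 11 letters (3.45% and 0.505%) are longer or narrower forms that overlap the first 3. The Sp1 sequence GGGGCGGGG was in 8.62% of member windows and 9.73% of all, with 24.8% in well-expressed genes, and the NF-Y sequence ATTGG in 32.8% of member windows and 37.5% of all.

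Across the complexes the axonal fold changes spread widely and had large errors, with standard errors between 0.47 and 1.06 on the log2 scale. For members with an axonal mean of at least 10, which were 40 of the 69, the median deposited log2 fold change was 0.37, against 0.15 for all genes with that mean and 0.44 for genes well expressed in somata. The median was 0.36 for 19 members of complex I, 0.72 for the 4 of complex II, 0.05 for 5 of complex III, 0.79 for 5 of complex IV and 0.33 for 7 of complex V, all from the authors' deposited table. Relative to the well-expressed genes, whose own median was shifted to the positive side by 0.44, the members' median was -0.07, so the direction of the members' median depended on this scaling. The median log2 ratio of the recovered counts was 0.45 with all libraries. Without library 1 of the positive side it was 0.83, and without library 2 of the negative side it was 0.69. The threshold fell between Ndufs7, the last gene inside with a mean of 10.6, and Ndufs8, the first outside with 9.68. The median over all 66 members with axonal reads was 0.54, and over all genes with reads -0.14.

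**Figure D2:**
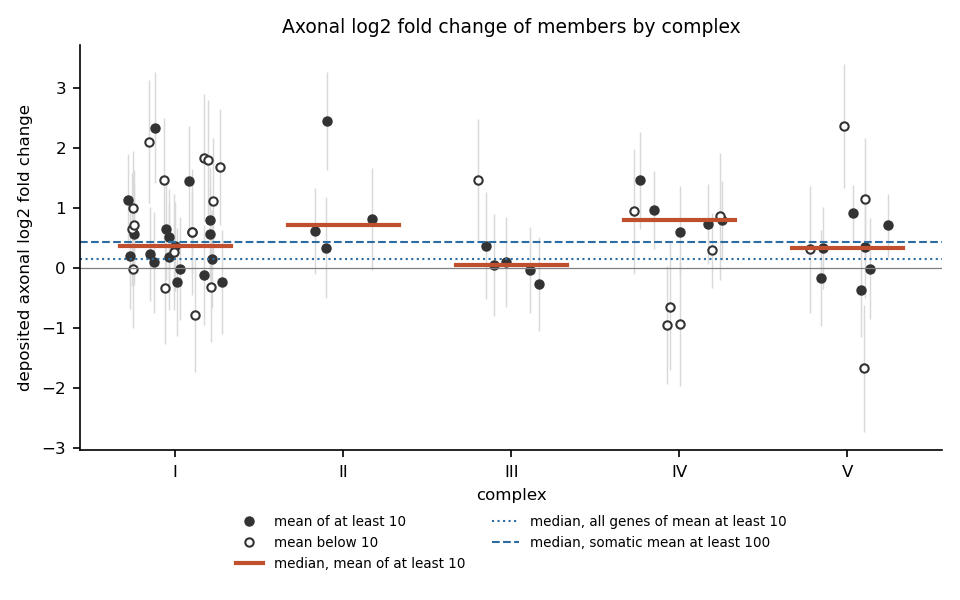
Deposited axonal log2 fold change of each member with axonal reads, by complex, with its standard error as a grey bar. Filled points have an axonal mean of at least 10 and open points a lower mean; red bars are complex medians of the filled points, 0.36, 0.72, 0.05, 0.79 and 0.33 for complexes I to V, and the blue lines are the medians of all genes (0.15) and of genes well expressed in somata (0.44).

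For 31 of 66 members both positive-side libraries were above both negative-side libraries, and for 5 the reverse held. The background was 17.1% and 20% of all genes with reads, and 47.8% and 6.05% of well-expressed genes. Among the 40 members with a mean of at least 10 the counts were 17 and 0, against 30.6% and 18.9% of all genes with that mean. The 5 with the negative side higher were Ndufb4, Cox4i2, Cox7b, Cox8c and the Atp5h row, each with a mean under 10.

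Complex I takes electrons from NADH. Of its 19 members with a mean of at least 10, 8 had the positive side higher without overlap. The background was 30.6% of all genes with that mean and 47.8% of well-expressed genes. These 8 included the NADH-binding flavoprotein Ndufv1, with 28.7 and 30.5 normalized counts on the positive side, against 7.35 and 16.2 on the negative side (1.13 ± 0.77 SE in the authors' deposited table). The largest iron-sulfur subunit, Ndufs1, had 40.8 and 33.6 on the positive side, against 15.8 and 31.1 on the negative side, so its lower positive-side library was only slightly above the higher negative-side one. Ndufa8, an accessory subunit, had 11.3 and 25.04 on the positive side, against 4.20 and 5.40 on the negative side, the second highest fold change of the complex at that mean (1.45 in the authors' deposited table). The lowest at that mean was Ndufa12, an accessory subunit of the peripheral arm, with 21.2 and 3.91 on the positive side, against 24.2 and 6.75 on the negative side. There library 2 was far below library 1 on both sides, so the libraries within a side differed more than the sides did. Apart from Ndufa13, Ndufa8, Ndufv1 and Ndufa12, the members of complex I with a mean of 10 or more lay between -0.23 (Ndufa7) and 0.80 (Ndufs5) in the authors' deposited table. Another Ndufs5 row, which the rule missed, had a mean under 10 and lay at -0.30. Of the 15 members of complex I with reads and a mean under 10, 11 lay on the positive side and 4 on the negative side.

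Complex II, succinate dehydrogenase, belongs to the citric acid cycle as well. Beside Sdhb, the flavoprotein Sdha had 22.7 and 43.0 normalized counts on the positive side, against 19.96 and 20.3 on the negative side, without overlap (0.62 ± 0.72 SE in the authors' deposited table). The membrane anchors Sdhc (13.6 and 29.7 on the positive side, 15.8 and 5.40 on the negative side) and Sdhd (9.83 and 25.8 on the positive side, 10.5 and 16.2 on the negative side) overlapped. All 4 subunits lay on the positive side, and the distance between the sides was over 3-fold for Sdhb alone.

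Complex III passes electrons from ubiquinol to cytochrome c. The sides overlapped for each of its 5 members with a mean of 10 or more. The Rieske iron-sulfur protein Uqcrfs1 had 18.9 and 14.1 normalized counts on the positive side, against 15.8 and 25.7 on the negative side (-0.27 ± 0.78 SE in the authors' deposited table), the lowest of the complex. The core proteins Uqcrc1 (26.5 and 21.1 on the positive side, 23.1 and 25.7 on the negative side) and Uqcrc2 (23.4 and 26.6 on the positive side, against 11.6 and 35.1 on the negative side) were near 0 in fold change. The highest at that mean was Uqcrh, the hinge protein, at 14.4 and 12.5 on the positive side, against 13.7 and 5.40 on the negative side, where library 2 of the negative side stood below the other 3. The member row of Uqcrb, a small subunit with a mean under 10, had 8.31 and 18.0 on the positive side, against 5.25 and 0 on the negative side. Its sides did not overlap, and its fold change was the highest of the complex (1.47 ± 1.01 SE in the authors' deposited table). Another Uqcrb row, which the rule missed, had 7.56 and 6.26 on the positive side, against 5.25 and 6.75 on the negative side. There the sides overlapped and the log2 fold change was 0.14.

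Complex IV, cytochrome c oxidase, reduces oxygen. All 5 of its members with a mean of at least 10 had both positive-side libraries above both negative-side ones. The background was 30.6% of all genes with that mean and 47.8% of well-expressed genes. Among complex IV rows that the rule missed, at that mean, the sides overlapped for Cox5a (0.42) and Cox7c (-0.36) and not for Cox6c (0.87). Cox4i1, the ubiquitous isoform of the subunit that carries allosteric control, had 34.0 and 50.9 normalized counts on the positive side, against 21.0 and 27.0 on the negative side. Cox6a1, the isoform of its subunit outside muscle, had 44.6 and 49.3 on the positive side, against 19.96 and 24.3 on the negative side. Its higher negative-side library was well below both positive-side ones. Cox8a, a small membrane subunit, had 39.3 and 50.9 on the positive side, against 17.9 and 31.1 on the negative side. The zinc-binding Cox5b had 21.9 and 28.2 on the positive side, against 15.8 and 14.9 on the negative side. Cox7a2l, which joins complex III to complex IV in supercomplexes, was the highest, with 22.7 and 32.9 on the positive side, against 9.45 and 6.75 on the negative side (1.46 ± 0.80 SE, DESeq2 Wald p = 0.0698 in the authors' deposited table). Cox7b lay the other way, with 3.02 and 4.70 on the positive side, against 9.45 and 10.8 on the negative side, at a mean under 10. Ndufa4, first described in complex I and later assigned to complex IV, had 16.6 and 25.8 on the positive side, against 4.20 and 20.3 on the negative side; counted in complex IV it would give that complex a median of 0.76.

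Isoforms of complex IV that belong to other tissues were at the edge of detection. Cox4i2, the lung isoform, had 0.756 and 4.70 normalized counts in axonal libraries of the positive side, against 6.30 and 9.45 on the negative side, 20 axonal reads in all. It had no somatic read among 6914718 recovered reads, a count that allows a share of up to 3 reads in that number. Cox7a2, the ubiquitous isoform of its subunit, had 11.3 and 3.91 in axons on the positive side, against 0 and 5.40 on the negative side. Cox8c and Cox6b2, known from testis, had 13 and 11 axonal reads and 1 and 25 somatic reads. Cox8b, a muscle isoform, had no axonal and 1 somatic read, while Cox6a2 and Cox7a1, muscle isoforms that the RefSeq table names for rows outside the rule, had 1 and 9 axonal reads. Genes with reads in axons and none in somata, such as Cox4i2, were 5473 in number and took 2.80% and 1.25% of the reads on the positive side of axons, against 5.59% and 4.62% on the negative side. The part of this share in the negative direction of Cox4i2 was not tested.

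Complex V makes ATP, and its catalytic beta and alpha subunits were the best covered members. Atp5b had 163 and 242 normalized counts on the positive side, against 81.9 and 127 on the negative side over 697 reads, and its sides did not overlap (0.91 ± 0.47 SE, unadjusted DESeq2 Wald p = 0.0538 in the authors' deposited table). Atp5a1 had 88.4 and 137 on the positive side, against 47.3 and 86.4 on the negative side, where the lower positive-side library was only just above the higher negative-side one (0.71 ± 0.53 SE). Atp5d, the delta subunit, had 31.7 and 36.8 on the positive side, against 17.9 and 35.1 on the negative side. Atp5o, the peripheral stalk subunit that confers oligomycin sensitivity, had 13.6 and 21.9 on the positive side, against 35.7 and 12.2 on the negative side, the lowest at that mean. Atp5e, the epsilon subunit, had 13.6 and 13.3 on the positive side, against 13.7 and 13.5 on the negative side, with nearly equal counts in all 4 libraries. The small membrane subunits Atp5i (10.6 and 21.9 on the positive side, 15.8 and 8.10 on the negative side) and Atp5j2 (12.1 and 19.6 on the positive side, against 18.9 and 17.6 on the negative side) overlapped. The complex V median log2 ratio of the recovered counts was 0.37 with all libraries, 0.00 without library 2 of the positive side and 0.04 without library 2 of the negative side.

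The rule left out 22 rows that the RefSeq table names as subunits through their Entrez identifiers, among them Cycs, Cox5a, Cox6c, Cox7c, Atp5f1c, Atp5pb and the 3 genes of the c ring. Of these, 16 lay on the positive side and 6 on the negative side in axons, and the 13 with a mean of at least 10 had a median of 0.56 in the authors' deposited table. The main Cycs row, for the electron carrier cytochrome c, had 37.04 and 25.04 normalized counts on the positive side, against 1.05 and 23.0 on the negative side. Its negative-side libraries differed from each other more than the sides did. The c ring genes had 21.2 and 6.26 on the positive side, against 5.25 and 33.8 on the negative side for Atp5mc1. Atp5mc2 had 13.6 and 25.8 on the positive side, against 8.40 and 16.2 on the negative side. Atp5mc3 had 32.5 and 19.6 on the positive side, against 14.7 and 18.9 on the negative side, and its sides alone of the 3 did not overlap. Some rows are copies or pseudogenes, where reads may be shared between near-identical loci: the rows called Ndufs6 and Cox6c-ps1 had no reads, and the row called Atp5h is a pseudogene in RefSeq with 12 axonal reads. The rows called Atp5s and Atp5sl are Dmac2l and Dmac2 in RefSeq, which are not subunits of the ATP synthase, and Cox7a2l2 shares its Entrez identifier with Cox7a2.

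The share of axonal reads that went to the members was higher on the positive side, and so was that of all genes well expressed in somata. Members held 3.68 and 4.80 of 1000 recovered axonal reads on the positive side, against 2.65 and 2.98 on the negative side, so the sides did not overlap. Genes well expressed in somata, without the most abundant ones that were not recovered, held 46.2% and 53.2% of recovered reads on the positive side. On the negative side they held 30.5% and 37.7%. Per 100 reads of those genes, members held 0.795 and 0.902 on the positive side, against 0.869 and 0.792 on the negative side, and the sides overlapped. Values of this measure by complex, for members only, were as follows. Complex III had 0.0712 and 0.0592 per 100 such reads on the positive side, against 0.0860 and 0.0892 on the negative side, without overlap. Complex II had 0.0564 and 0.0734 on the positive side, against 0.0525 and 0.0400 on the negative side. Complex IV had 0.126 and 0.130 on the positive side, against 0.113 and 0.113 on the negative side, so both lay the other way without overlap. Both depend on the rows counted. Sdhb gave 50 and 39 of the 111 and 165 complex II reads on the positive side, against 3 and 4 of 47 and 35. The 5 complex IV rows that the rule missed, not counted here, had 79 and 73 reads on the positive side, against 51 and 29. Complexes I and V overlapped. No test was made of these shares, because each side has 2 libraries.

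**Figure D3:**
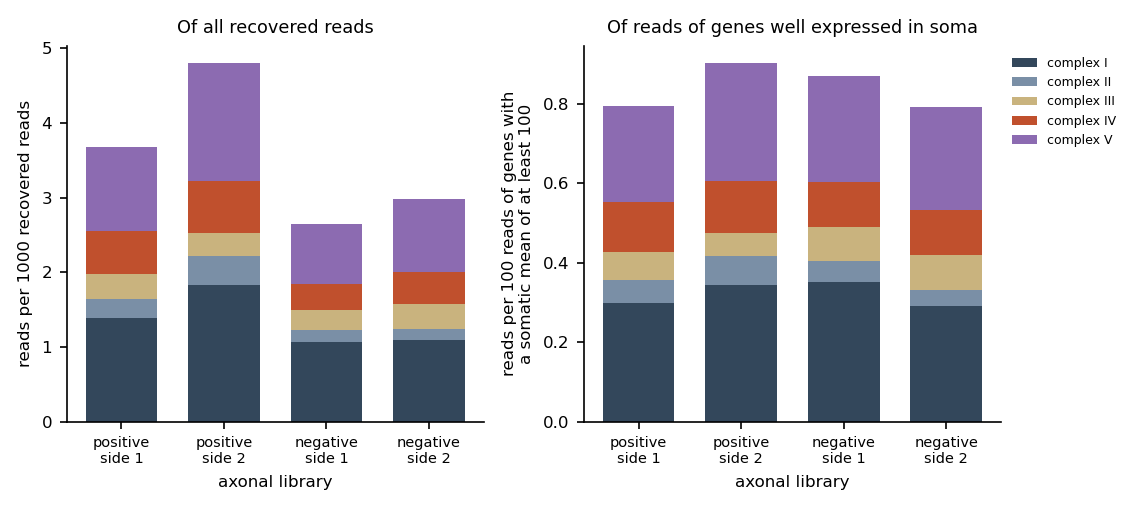
Axonal reads of members in each library, stacked by complex, per 1000 recovered reads (left) and per 100 reads of genes well expressed in somata (right). The positive side is higher on the left, at 3.68 and 4.80 against 2.65 and 2.98; on the right the 4 libraries lie between 0.792 and 0.902.

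Markers of other cells differed in direction between cell types in axons. Of 9 astrocyte markers found, 6 had an adjusted p, and 5 were called on the positive side and 0 on the negative side in the authors' deposited table. Slc1a2 was the 1 marker of the 9 below 0 (-0.82), with the negative side higher, no overlap and no adjusted p. The summed share of the 9 was 0.710% and 0.826% of recovered reads on the positive side, against 0.133% and 0.270% on the negative side. Gfap, the astrocyte filament protein, had 1228 and 1530 normalized counts on the positive side, against 158 and 375 on the negative side. Of 7 fibroblast markers, 3 (Col1a1, Col1a2 and Fbln1) were called on the positive side, the only 3 with an adjusted p. The other 4 (Col3a1, Dcn, Lum and Pdgfra) had log2 fold changes below 0 and no adjusted p, so they could not be called. The median over the 7 was -0.05 in the authors' deposited table. The list held 0.193% and 0.296% of reads on the positive side, against 0.0511% and 0.0539% on the negative side. Of the 8 neuronal markers, 5 had an adjusted p, and none of these was called. All 8 together held 0.181% and 0.204% on the positive side, against 0.123% and 0.250% on the negative side, and no marker of these 3 lists was at 0 in axons as a whole. The 6 microglial and 7 oligodendrocyte lineage markers had no adjusted p, so none could be called. On the negative side 2 microglial markers, Csf1r (-1.83) and P2ry12 (-2.37), had an unadjusted DESeq2 Wald p under 0.05, against 0 on the positive side. Microglial markers held 0.0155% and 0.00687% of reads on the positive side, against 0.0280% and 0.0431% on the negative side. Those of the oligodendrocyte lineage held 0.0216% and 0.0232%, against 0.0201% and 0.0104%. The part of other cell types in the members' values was not tested, and in bulk RNA fewer cells of a type and less RNA per cell cannot be told apart.

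Related gene lists gave the following in axons. Of 12 citric acid cycle genes, 11 lay on the positive side and 1 on the negative side, and the median log2 fold change was 0.79 in the authors' deposited table. Only 2 of the 12 had an adjusted p, and neither was called. Of 39 rows of respiratory chain assembly factors with reads, 20 lay on the positive side and 19 on the negative side with a median of 0.03, and 8 had a mean of at least 10. Of 9 transcriptional regulators of these genes, 4 lay on the positive side and 5 on the negative side. Ppargc1b, a coactivator of mitochondrial genes, was the one with an unadjusted p under 0.05, with 3.78 and 2.35 normalized counts on the positive side, against 6.30 and 31.1 on the negative side (DESeq2 Wald p = 0.0468 in the authors' deposited table), where 1 negative-side library carried most of the difference.

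In somata, where the treatment was not applied, the members were centred on 0. No member passed an adjusted p of 0.05 in the DESeq2 test of the authors' deposited table, and 0% of the 18995 genes tested were called on either side. No member had an unadjusted p under 0.05 by that test, where 0.0105% of genes did on the positive side and 0% on the negative side. Of 66 members with somatic reads, 31 lay on the positive side and 35 on the negative side, against 45.7% and 54.3% of all genes and 36.7% and 63.3% of well-expressed genes. Of the 60 members with a somatic mean of 10 or more, 29 lay on the positive side and 31 on the negative side (44.2% and 55.8% of all genes with that mean), with a median of -0.01. The smallest p was that of Ndufs7, an iron-sulfur subunit of complex I, with 36.0 and 60.6 normalized counts on the positive side, against 31.0 and 15.6 on the negative side (0.64 ± 0.54 SE, DESeq2 Wald p = 0.240 in the authors' deposited table). Sdhb, the member with the highest axonal log2 fold change, had 95.6 and 90.9 on the positive side, against 107 and 122 on the negative side in somata. There the negative side was higher without overlap (-0.22 ± 0.47 SE in the authors' deposited table). Both sides lay apart, positive side higher, for 6 members and, negative side higher, for 3. The background was 7.42% and 8.26% of genes with a mean of 10 or more, 7.55% and 7.85% of genes with reads, and 4.6% and 7.88% of well-expressed genes.

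The somatic spread was between deep and shallow libraries. The median log2 ratio of the deep over the shallow library was 0.45 within the positive side and 0.67 within the negative side for the 60 members, against 0.19 and 0.21 for genes well expressed in somata. Uqcrh had 336 and 104 normalized counts on the positive side, against 364 and 62.6 on the negative side, so each deep library, given first, was over 2-fold above the shallow one of its side. Ndufa4 had 212 and 67.3 on the positive side, against 306 and 65.7 on the negative side. Atp5o had 237 and 97.7 on the positive side, against 277 and 59.4 on the negative side. Both genes were lowest in the shallow libraries. Ndufc2, an accessory subunit of complex I, had 133 and 47.1 on the positive side, against 177 and 37.5 on the negative side. In all, 11 of the 60 members were over 2-fold higher in the deep library on both sides, as were 264 of 2565 well-expressed genes and 944 of all 11049 genes with a somatic mean of 10 or more. Ndufb7 was the 1 member over 2-fold lower, as were 262 of the well-expressed genes and 1224 of all genes, with 12.5 and 53.9 on the positive side, against 10.2 and 34.4 on the negative side. Cox4i1 (197 and 189 on the positive side, 173 and 172 on the negative side), Sdhb and Atp5a1 (520.0 and 495 on the positive side, against 503 and 569 on the negative side) were close in all 4 libraries. Between the deep libraries alone the members' median log2 ratio was -0.06, and between the shallow ones 0.11.

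**Figure D4:**
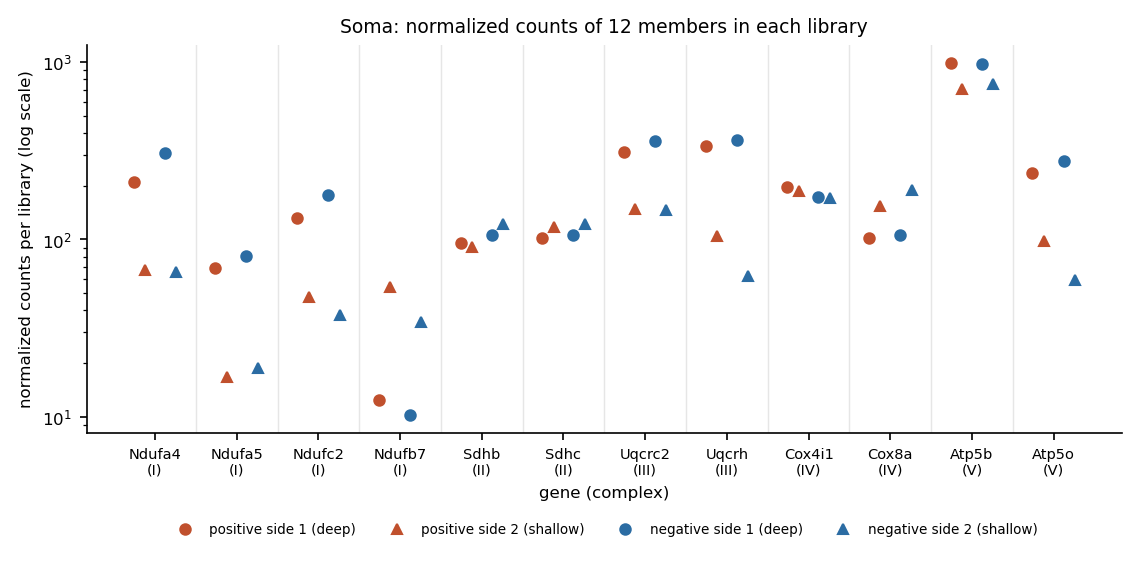
Normalized counts in each somatic library (log axis) of 12 members chosen after their values were seen to show both kinds of spread, with the positive side left of the negative side. Circles are deep libraries and triangles shallow ones: for Uqcrh the circles stand at 336 and 364 and the triangles at 104 and 62.6, while for Cox4i1 the 4 symbols lie between 172 and 197.

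Axonal and somatic fold changes were set against each other gene by gene. This takes the same treatment as the numerator in both compartments, which the tables do not state. If the numerators differ, the differences below and the words higher and lower do not hold. The difference, axonal minus somatic log2 fold change, was above 0 for 49 of the 65 members with reads in both tables and below 0 for 16, with a median of 0.45, against 0.48 for well-expressed genes and -0.03 for all genes. No member passed an adjusted p of 0.05 in a normal test of the difference of the deposited DESeq2 estimates, adjusted by Benjamini-Hochberg over 18406 genes, of which 0.0326% were called higher in axons and 0% lower. At an unadjusted p under 0.05 by the same test, 2 members were higher and 0 lower, against 1.42% and 1.18% of genes. They were Sdhb, with a difference of 2.67 ± 0.95 SE (p = 0.00482, from the DESeq2 estimates that the authors deposited), and Atp5j, with 2.33 ± 1.17 SE (p = 0.0462, likewise).

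The members had a lower level in axons than in somata, as did most genes well expressed in somata. The level is the log2 of the axonal over the somatic mean, each scaled to the sum of its table; the tables were normalized separately, so levels are given with no test. All 40 members with a mean of at least 10 in both were below 0, with a median of -1.62 and a range from -3.29 to -0.74. Of genes well expressed in somata 2492 of 2655 were below 0, and of all genes with that mean 5646 of 7257, so the count of members is near that of the well-expressed genes. The median was -1.39 for genes well expressed in somata and -0.79 for all genes with that mean. Scaled to the median of the well-expressed genes, the members' median was -0.22 and 29 of 40 were below 0. By complex the median was -1.47 for I, -1.76 for II, -1.84 for III, -1.71 for IV and -1.62 for V. Citric acid cycle genes had -1.10 and neuronal markers -2.02.

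Uqcrh was the lowest of the 40, at -3.29, with an axonal mean of 11.5 and a somatic mean of 217 in the authors' deposited tables. It was also a gene whose somatic count was high in the deep libraries alone. Cox7a2l (-2.45), Uqcrc2 (-2.37) and Ndufa4 (-2.33) came next, and the lowest of complex V was Atp5o (-2.06). These genes too were higher in the deep somatic library on both sides. The log2 ratios of deep over shallow, positive side first, were 1.91 and 1.06 for Cox7a2l and 1.06 and 1.29 for Uqcrc2. They were 1.65 and 2.21 for Ndufa4 and 1.27 and 2.21 for Atp5o. Ndufa13, at the other end of the levels, had 1.28 and 0.86. The part of this imbalance in the levels was not tested. The least lowered of the 40 were Ndufa13 (-0.74), Ndufs7 (-0.81), Ndufa9 (-0.81) and Ndufv3 (-0.82), all of complex I, with Atp5d (-0.95) and Cox8a (-1.04) the least lowered of complexes V and IV. Levels of the catalytic pair Atp5b (-1.53) and Atp5a1 (-1.59) lay close together.

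**Figure D5:**
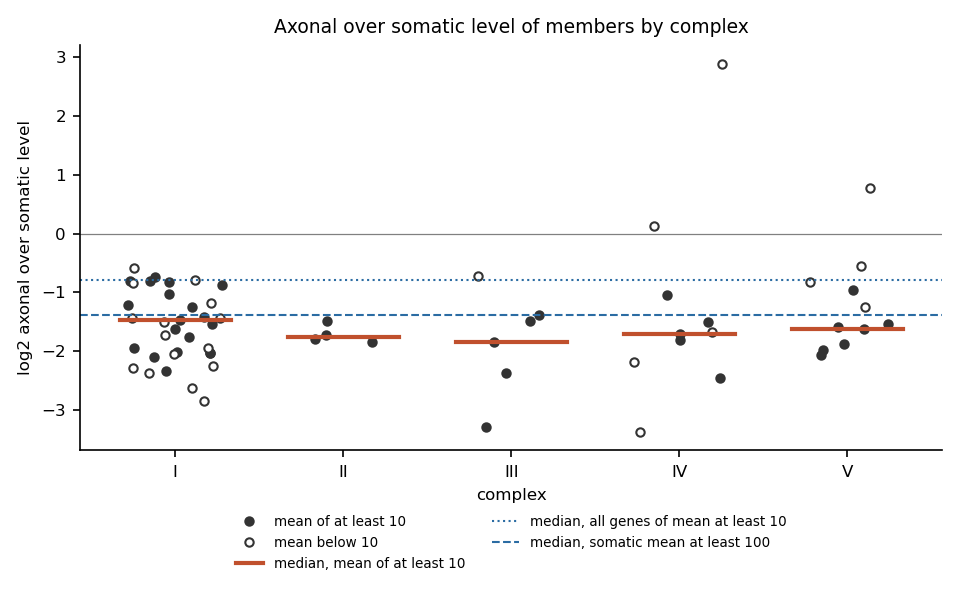
Axonal over somatic level (log2, each mean scaled to the sum of its table) of members by complex. Filled points have a mean of at least 10 in both compartments and lie below 0, from -3.29 for Uqcrh to -0.74 for Ndufa13; the red bars are their medians, and the blue lines the medians of all genes (-0.79) and of genes well expressed in somata (-1.39).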

How the data were processed

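Libraries were made from total RNA with a TruSeq kit, per the labels' protocols, and processed with Trim Galore, TopHat2, SAMtools and DESeq2, per the submitters' processing notes, with no versions. Which genome build, annotation, strand setting and counter were used is not given in the sources used here. The authors deposited for each compartment a mean of normalized counts (a signal value: gene counts divided by size factors), the log2 fold change and its standard error, a Wald statistic (a score) and p-values, raw and adjusted, per the file headers. The fold changes are drawn towards 0 by the authors' fit, so ratios of recovered counts are larger for genes with low counts.

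The members, gene lists and tests were chosen with earlier results of these data known. Lists were matched by table symbol and, after their values had been seen, also by the RefSeq symbol of the Entrez identifier; 13 of the 68 matched members have another RefSeq name. Named genes were the highest and lowest of each complex in axonal fold change and in level, the smallest p of each comparison, isoform sets, Sdha to Sdhd, Cycs and catalytic subunits; further members were named after their values were seen to account for the spread.

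Each mean below 1000 was solved for 4 whole read counts and 4 size factors, written with 15 digits; every such mean had exactly 1 solution, against at most 2.56% of shifted values. The somatic size factors were 2.97 and 0.297 on the positive side, against 3.74 and 0.320 on the negative side, and the axonal ones 1.32 and 1.28 against 0.952 and 0.740. Recovery and difference test were tested on simulated data. Shares and floors cover counting error only. Scripts ran in Python 3.11.15 with NumPy 2.4.6, pandas 2.3.3, SciPy 1.17.1 and numba 0.67.0. The smallest mean kept in medians was 10, and the pseudocount of ratios was 0.5. Alternatives were other mean minimums, adjustment over other gene sets, other scalings, the ratio of recovered counts and leaving out each library.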

Additional observations from a re-analysis of the deposited data

How the results depend on the processing

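The counts of called members stayed at 0 in every alternative run for axons, somata and their difference; adjusted over genes with an axonal mean of at least 10, the smallest adjusted p of a member from the authors' deposited DESeq2 p-values was 0.0879. Of the alternative medians, 39 differed from the reported one by less than the spread between library pairs and 9 by more. Of the 39, 5 changed sign, 2 for complex III and 3 for somata, where the reported medians were near 0. Centred on genes well expressed in somata, the members' axonal median was -0.0726 in place of 0.37. The level median was -0.22 when scaled to the median of those genes and -2.29 without the 20 most abundant identifiers of each table, in place of -1.62; the cause was not tested. Leaving out each library in turn gave axonal medians from 0.31 to 0.83 for all members, 0.26 to 0.82 for complex I, 0.26 to 1.30 for complex II, -0.11 to 0.12 for complex III, 0.67 to 1.21 for complex IV and 0.00255 to 0.466 for complex V, and somatic medians from -0.24 to 0.44. These values are ratios of recovered counts, which are not drawn towards 0. No paired analysis was possible because the columns of the tables carry no replicate numbers. The calls were not rerun without a library. Depth limits the axonal results: the median member with reads rests on 59 axonal reads over 4 libraries.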
